A study of Mus musculus with 12 samples.

Results

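Complement is a cascade of plasma proteins that marks cells and debris for removal. The 9 complement genes described here were chosen by symbol among the 33200 gene rows of the iWAT table, iWAT being inguinal white adipose tissue, a fat depot under the skin. They are the C1q subunits C1qa, C1qb and C1qc, and 6 genes of the later cascade and its control, C1ra, C2, C3, C4b, Cfb and Serping1. All 9 passed the filter on low counts, as did 16656 of the 33200 rows. The compared groups were 3 libraries of mice with a global CRISPR/Cas knockout of Nrep (Nrep-/-, here KO) and 3 libraries of C57BL/6 wild-type mice, described as biological replicates. All mice were 16 weeks old and were kept pathogen-free on a standard maintenance diet. The knockout is present in every cell type, and the deleted part of the gene and the number of founder lines are not given in the sources used here. RNA was poly(A)-selected and sequenced. The 6 liver libraries are not used here.

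C1q is the recognition molecule of the classical pathway. Its A, B and C chains assemble into a collagen-stalked hexamer of trimers that binds antibody on a surface, and in most tissues macrophages are its main source. C1r and C1s are proteases carried by C1q, which cleave C4 and then C2 to form the convertase that splits C3. Factor B, encoded by Cfb, forms the alternative pathway's convertase with C3 fragments, and C1 inhibitor, encoded by Serping1, blocks C1r and C1s. In fat these later components are also made by stromal cells and adipocytes. In bulk tissue, fewer cells of a type and less RNA per cell cannot be told apart.

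The libraries held 17970451 to 20369345 estimated counts. Nrep had 2, 2 and 5 counts in KO libraries, against 1404, 1640 and 1300 in wild-type libraries. The adipocyte hormone Adipoq was at 1571 to 2879 CPM (counts scaled to the library total after TMM normalisation) in KO and 1306 to 1574 CPM in wild type, and 0 of 15 adipocyte markers were at 0 in any library. On some marker lists 1 library of each group, KO replicate 2 and wild-type replicate 3, lay toward the other group. For the mean of the C1q genes and of the other 6 members, KO replicate 2 was instead farthest from wild type, as given below. Over 10 monocyte and neutrophil markers, the mean log2 level relative to the wild-type mean was -2.15, -1.33 and -2.46 in KO replicates 1, 2 and 3, and 0.37, 0.81 and -1.18 in wild-type replicates 1, 2 and 3. Over 15 adipocyte markers it was 0.85, 0.28 and 1.13 in KO and 0.00, -0.21 and 0.21 in wild type. Skeletal muscle markers summed to 4381, 729.5 and 4050.1 CPM in KO and to 11.8 to 17.7 CPM in wild type. Of 14 tested muscle markers 12 passed the test, all higher in KO; their part in the complement values was not tested.

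The 3 C1q genes lie side by side on mouse chromosome 4. Since the results below turn on C1qb against its neighbours, their upstream sequence is shown, from RefSeq on build GRCm38.p6, both on the minus strand. RefSeq promoter sequences were matched for 4 of the 9 members: C1qb, C1qc, C1ra and C3. The C1qb stretch is the 250 bases before the RefSeq start, chr4:136886201-136886450. The C1qc stretch is the first 99 of the 250 bases, chr4:136893066-136893164, since an exon of another annotated C1qc transcript begins there. Capitals mark the letters GAGGAAG, the form of the site of the myeloid factor PU.1 that was searched, read on either strand. Shorter forms were not searched: the letters GAGGAA occur unmarked in the C1qb stretch, and AGGAAG, read on either strand, in both stretches.
C1qb upstream: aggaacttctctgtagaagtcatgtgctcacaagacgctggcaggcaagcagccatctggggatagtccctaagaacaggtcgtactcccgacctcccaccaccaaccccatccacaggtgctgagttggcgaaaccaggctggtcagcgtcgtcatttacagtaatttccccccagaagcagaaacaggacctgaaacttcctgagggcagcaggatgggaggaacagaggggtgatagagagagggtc
C1qc upstream: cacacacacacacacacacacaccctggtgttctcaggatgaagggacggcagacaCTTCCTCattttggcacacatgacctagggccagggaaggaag
The PU.1 letters were present once before C1qc, on the opposite strand at positions -194 to -188 from the RefSeq start, and 0 times in the C1qb, C1ra and C3 windows. They occur in 10.6% of 32817 promoter windows of 250 bases. The interferon-stimulated response element (in 2.97% of windows), the STAT site (TTCNNNGAA, in 7.01%) and the C/EBP half-site pair (TTGNNNCAA, in 5.02%), searched on both strands, and the TATA box (TATAAA, in 7.60%), searched on the gene's strand, were not found in any of the 4 windows. A missing match says only that these letters are not there. All 250 bases of each window were searched, although the part kept under the exon rule above was 99 bases for C1qc and 34 for C1ra.

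The comparison asked whether complement transcripts differ with Nrep genotype in iWAT. All 9 members had negative log2 fold changes (KO over wild type), and the 3 C1q genes had the 3 most negative, but 0 of 9 passed the test. Of all tested genes, 55.8% had negative log2 fold changes. The members were measured in the same libraries, so their signs are not separate observations. The test was edgeR's quasi-likelihood test over all genes, at a Benjamini-Hochberg adjusted p of 0.05, which called 1.03% of the 16656 tested genes, 0.865% higher and 0.162% lower in KO. At an unadjusted p under 0.05, the 3 C1q genes were lower and none of the other 6, against 9.79% of all genes lower and 12.8% higher. DESeq2 called 1 member, C1qb, lower, where it called 3.31% of all genes lower and 6.72% higher. limma-voom called 0 of 9, against 0.0961% of all genes, and edgeR with the replicate number as a block called 0 of 9, against 7.35%. Without the filter on low counts edgeR called C1qb alone, against 4.14% of genes, as it did at an adjusted p of 0.10, against 8.27%. The members' median log2 fold change was -0.22, beside -0.06 over all tested genes.

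C1qb, the B chain, had 132, 123 and 179.6 CPM in KO libraries 1, 2 and 3, against 226, 303 and 203 CPM in wild-type libraries 1, 2 and 3. All 3 KO libraries were below all 3 wild-type libraries. The means were 145 ± 30.3 CPM in KO and 244 ± 52.5 CPM in wild type (SD, n = 3 each). The log2 fold change was -0.75 (SE 0.21, 95% interval -1.23 to -0.27). That is 0.595 of the wild-type level, with an adjusted p = 0.0954 in edgeR, which misses the threshold. The adjusted p was 0.0262 in DESeq2 and 0.00949 in edgeR without the filter on low counts, in a range of 0.00949 to 0.316 over 17 alternatives. Without the filter the log2 fold change of C1qb was also -0.75. That fit had median prior degrees of freedom, the weight given to variance shared across genes, of 46.88, against 3.884 with the filter. The part of this weight in the smaller adjusted p was not tested.

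C1qa, the A chain, had 152, 147 and 204.9 CPM in KO, against 204.6, 260.3 and 213 CPM in wild type. KO replicate 3 just exceeded wild-type replicate 1, so the groups overlapped by that pair. C1qc, the C chain, had 121, 105 and 152 CPM in KO, against 156, 194 and 155 CPM in wild type, without overlap. Groups that do not overlap, with KO lower, were found in 13.1% of all tested genes (KO higher in 15.2%), and among the members in C1qb, C1qc and C3. The log2 fold changes of C1qa and C1qc were nearly the same, at -0.43 (SE 0.18) and -0.42 (SE 0.17), with adjusted p = 0.203 and 0.206 in edgeR.

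Within a library, C1qb counts relative to the other chains were lower in KO, while C1qa relative to C1qc was similar in the groups. The ratio of C1qb to C1qa counts was 0.869, 0.840 and 0.877 in KO libraries, against 1.10, 1.16 and 0.951 in wild-type libraries. The ratio of C1qb to C1qc counts was 1.10, 1.17 and 1.18 in KO, against 1.45, 1.56 and 1.31 in wild type. For these ratios the groups did not overlap, and wild-type replicate 3 was the wild-type library nearest to KO. The ratio of C1qa to C1qc counts was 1.26, 1.39 and 1.35 in KO and 1.31, 1.34 and 1.38 in wild type, with overlapping groups. The mean log2 ratio differed between KO and wild type by -0.31 for C1qb to C1qa and -0.32 for C1qb to C1qc, each with an exact permutation p = 0.1, two-sided, the smallest that 3 against 3 libraries can give. For C1qa to C1qc the difference was -0.01 (exact permutation p = 0.9). Of 5 ratios compared, chosen after the values had been seen, none passed after adjustment (adjusted p = 0.25 for the C1qb ratios). Counts of the 3 C1q genes were whole numbers in all 6 libraries, so no read of theirs was split with another gene.

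**Figure D1:**
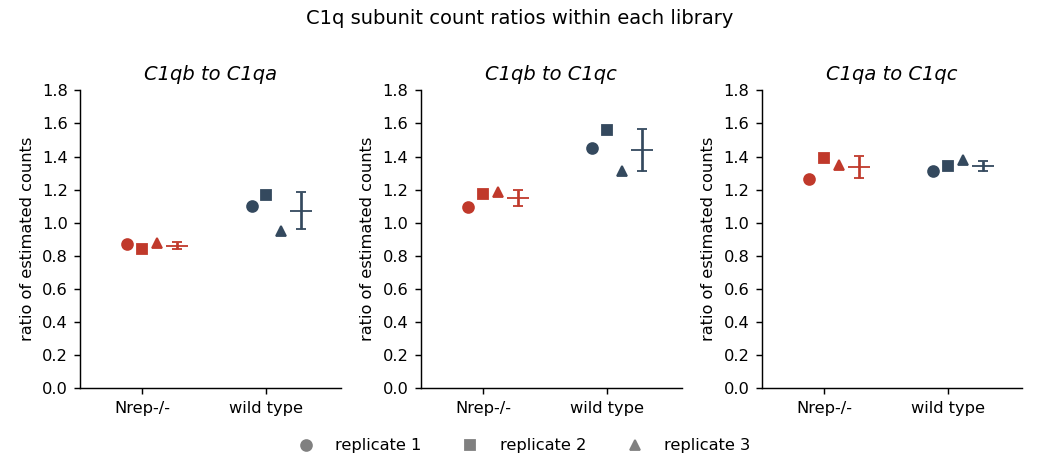
Ratios of estimated counts between C1q subunits within each library (vertical axes, no unit), with Nrep-/- libraries left and wild type right; symbols mark replicates and bars the mean ± SD. The C1qb ratios lie at 0.840 to 0.877 and 1.10 to 1.18 in Nrep-/-, below the wild-type values, while the C1qa to C1qc ratio overlaps.

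Macrophage markers were compared beside C1q. Of 15 tested markers, 13 had negative log2 fold changes with a median of -0.62, where 55.8% of all tested genes were negative. In edgeR 0 passed the test. At an unadjusted p under 0.05, 10 markers were lower and 0 higher, against 9.79% of all genes lower and 12.8% higher. The summed level of the markers was 2333 to 2431 CPM in KO and 3197 to 4411 CPM in wild type, and 0 markers were at 0 in any library. The receptor Csf1r, which macrophages need for survival, had 199, 197 and 219.6 CPM in KO against 241, 284 and 241 CPM in wild type (log2 fold change -0.32, edgeR adjusted p = 0.220, without overlap). Values were further apart for Cd68, a lysosomal glycoprotein, with 47.5, 53.6 and 49.4 CPM in KO against 135, 182 and 73.7 CPM in wild type (log2 fold change -1.38, edgeR adjusted p = 0.0630). For Fcgr1, a high-affinity antibody receptor, they were 7.63, 7.34 and 7.89 CPM in KO against 88.6, 113 and 15.7 CPM in wild type. The log2 fold change was positive for 2 markers, Mertk (0.17) and Cd163 (0.06), with overlapping groups for each. Csf1r, Cd68 and Fcgr1 were named after their values were seen, as were Mertk and Cd163. The 2 most abundant markers were the lysozyme gene Lyz2, with 1156 ± 292 CPM in KO and 1979 ± 384 CPM in wild type, and F13a1, a transglutaminase gene, with 216 ± 88.4 CPM in KO and 295 ± 29.2 CPM in wild type (SD, n = 3 each).

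C1q counts per macrophage marker count did not shift in a single direction. Divided by single markers, the summed C1q counts overlapped between the groups for 10 markers, were higher in every KO library for Adgre1, Fcgr1 and Ms4a7, and lower in every KO library for Mertk. C1q counts per Csf1r count were 2.04, 1.91 and 2.44 in KO and 2.43, 2.67 and 2.37 in wild type. Per Mertk count, a receptor for dying cells, they were 11.1, 11.3 and 11.5 in KO and 19.1, 18.7 and 17.8 in wild type. How much of the C1q difference moves with the number of macrophages was not tested.

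Among the members outside C1q, differences were smaller, at log2 fold changes of -0.36 to -0.14, and every 95% interval included 0. C3, the convergence point of all pathways, was the most abundant, with 2375, 2419 and 2387 CPM in KO against 2713, 3051 and 2469 CPM in wild type. The KO libraries were nearly equal and lay below the wild-type ones, of which replicate 3 was closest. The log2 fold change was -0.20 (SE 0.18, 95% interval -0.62 to 0.23, edgeR adjusted p = 0.531).

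C4b, which encodes complement C4, had 792, 625 and 1154 CPM in KO against 982, 1199 and 1119.7 CPM in wild type. KO replicate 3 lay among the wild-type libraries, and KO replicates 1 and 2 lay below them. The log2 fold change was -0.36 (SE 0.24, edgeR adjusted p = 0.399), and -0.12 without KO replicate 2. C4b shares 96.0% of 5378 aligned transcript bases with its neighbouring paralogue C4a, and its counts were not whole in 6 of 6 libraries. C4a had 23.24 to 28.17 counts in KO and 39.85 to 58.53 in wild type, against 12686 to 20773 counts of C4b in KO and 18451 to 25709 in wild type. Adding C4a to C4b left the C4b log2 fold change at -0.36.

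C2, the second convertase subunit, had 117, 119 and 167 CPM in KO against 159, 159 and 151 CPM in wild type. KO replicate 3 was the highest of the 6 libraries and the other KO libraries were the lowest. The log2 fold change was -0.22 (SE 0.17, edgeR adjusted p = 0.444). Cfb, the adjacent gene on chromosome 17, had 321, 379 and 336 CPM in KO against 414, 443 and 347 CPM in wild type, with a log2 fold change of -0.22 (SE 0.16, edgeR adjusted p = 0.424). KO replicate 2 exceeded wild-type replicate 3. A few reads of C2 and Cfb were split in 3 libraries, in which the predicted gene Gm20547 held 1.64 to 9.66 counts.

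C1ra, the protease C1r, had 203, 182.5 and 239.9 CPM in KO against 224, 247 and 219 CPM in wild type. Serping1, its inhibitor, had 354, 284 and 422 CPM in KO against 358, 428 and 386 CPM in wild type. For each gene KO replicate 3 lay within the wild-type range and KO replicate 2 was the lowest library. The log2 fold changes were -0.14 (SE 0.15, edgeR adjusted p = 0.580) for C1ra and -0.14 (SE 0.18, edgeR adjusted p = 0.642) for Serping1. Without KO replicate 2 they were 0.0042 and 0.048, so their direction rests on that library. C1ra shares 97.9% of 2432 aligned bases with C1rb, which had 6.45 to 21.76 counts in KO and 8.48 to 14.70 in wild type.

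**Figure D2:**
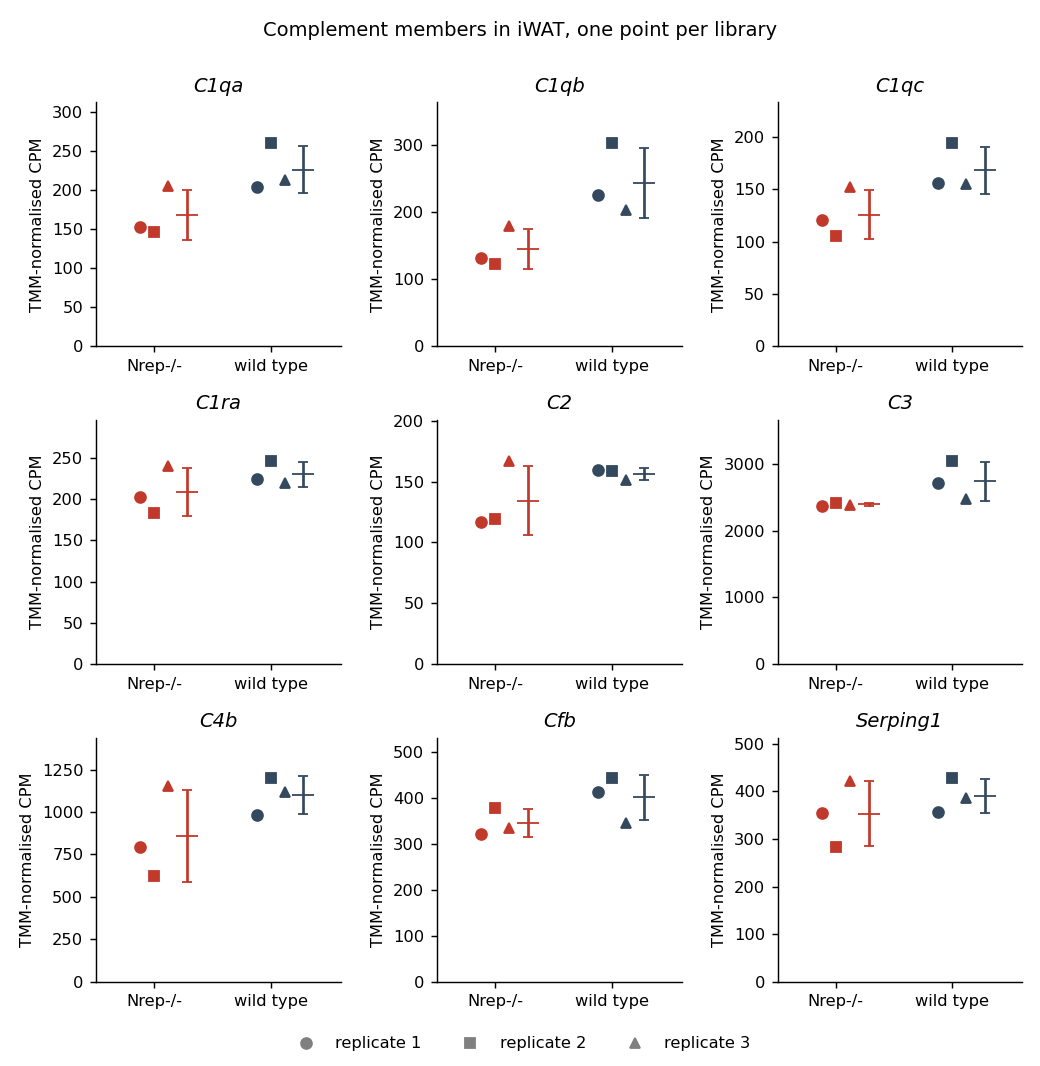
TMM-normalised CPM (vertical axes, linear from 0) of the 9 members in each iWAT library, Nrep-/- left and wild type right; symbols mark replicates and bars the mean ± SD (n = 3 each). The groups separate for C1qb, C1qc and C3 and overlap for the other 6, with the Nrep-/- libraries at 2375 to 2419 CPM for C3.

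Per kilobase of annotated exon, C3 was also highest, at 465 CPM per kilobase in KO and 534 in wild type. In wild type C1qb (224), C1qa (217), C4b (193), Serping1 (168), Cfb (142), C1qc (87.1), C1ra (77.1) and C2 (40.4) followed. In KO the order was C1qa (161), Serping1 (152), C4b (151), C1qb (133), Cfb (122), C1ra (69.9), C1qc (65.2) and C2 (34.7). C1qb was thus next to C3 in wild type and below C1qa, Serping1 and C4b in KO. The library ranges of neighbours overlapped in each group, except below C3, below Cfb and above C2. These lengths come from GENCODE M21, which may differ from the annotation used for counting.

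Stromal markers were compared beside the members outside C1q. Of 15 stromal and progenitor markers, 10 had negative log2 fold changes with a median of -0.47, and 0 passed the test in edgeR. At an unadjusted p under 0.05, 6 markers were lower and 0 higher, against 9.79% of all genes lower and 12.8% higher. The summed level of the markers was 5592 to 10097 CPM in KO and 9475 to 11647 CPM in wild type, and 0 markers were at 0. The mean log2 level relative to wild type was -0.32, -0.55 and -0.07 in KO replicates 1, 2 and 3 for these markers, and -0.29, -0.37 and -0.02 for the 6 members. For the C1q genes it was -0.63, -0.75 and -0.23. In each of these 3 lists KO replicate 3 was nearest to wild type and KO replicate 2 farthest. The most abundant stromal markers, the collagens Col3a1 and Col1a2, had log2 fold changes of -0.68 and -0.50 (edgeR adjusted p = 0.204 and 0.307). Positive log2 fold changes were found for 5 markers, Pi16 (0.80), Mfap5 (0.22), Fap (0.14), Lum (0.04) and Dcn (0.0025), each with overlapping groups. These 5 were named after their values were seen. The part of stromal cell number in these values was not tested.

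**Figure D3:**
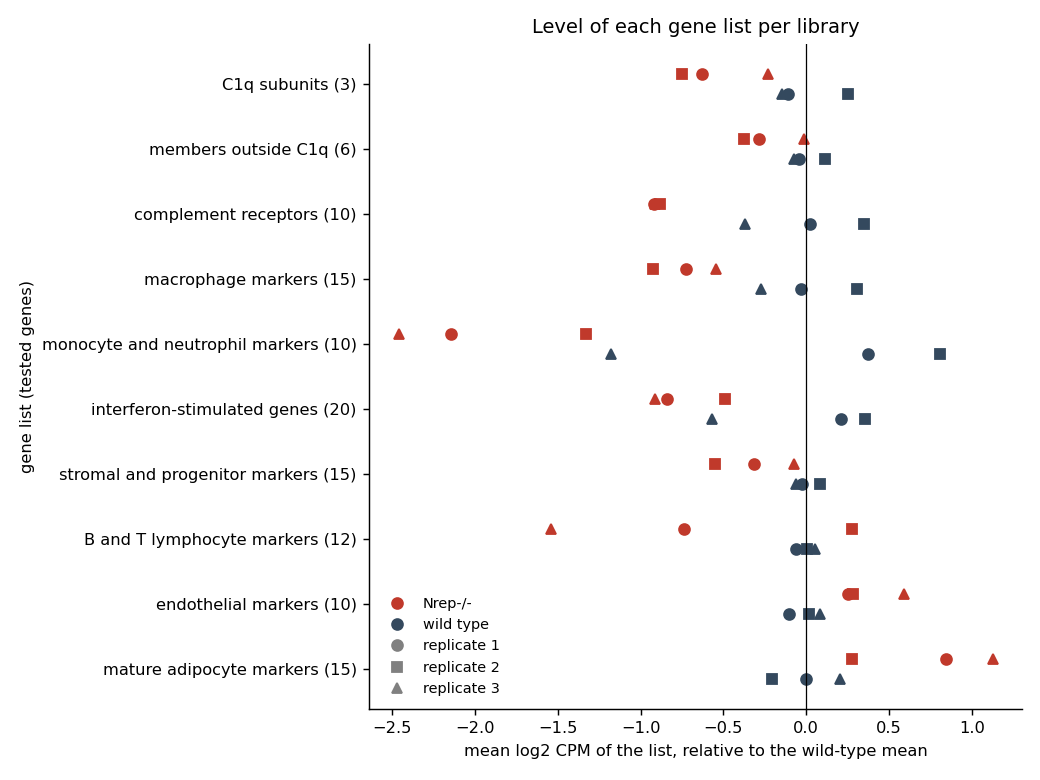
Mean log2 CPM of each gene list relative to its wild-type mean (horizontal axis), 1 symbol per library, with Nrep-/- above wild type in each row. C1q levels are -0.75 to -0.23 in Nrep-/-, the 6 other members reach -0.02, and complement receptors lie at -0.92 to -0.88.

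Profiles over the 6 libraries, compared by Pearson's r of log2 CPM as a description, were most like the C1q mean for Man1c1 (0.999), Dlg5 (0.991), St3gal5 (0.991), Cd14 (0.989) and Hivep3 (0.988), of 9829 named genes. Cd14, a myeloid receptor for bacterial lipopolysaccharide, had 20.4, 18.5 and 30.2 CPM in KO against 31.2, 39.5 and 28.4 CPM in wild type. The genes most like the mean of the other 6 members were Cd14 (0.999), Ninj1 (0.994), Hivep3 (0.988), Man1c1 (0.986) and Rab11fip5 (0.984). Cd14, Hivep3 and Man1c1 were among the 5 nearest genes of each profile. The 6 members did not share 1 profile. Their pairs had r of 0.07 (Cfb with Serping1) to 0.96 (C1ra with C4b), with a median of 0.58. Pairs of C1q genes had r of 0.97 to 0.99, and pairs of a C1q gene with another member had a median of 0.84. All values share the same 6 libraries, depth and group difference, and high values are found by searching many genes.

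Beyond the members, 48 symbols of other complement genes were listed by role, with 43 present in the table and 35 tested. None of the 35 passed in edgeR, where 1.03% of all genes did, and none in limma-voom. At an unadjusted p under 0.05, 11 were lower and 2 higher, or 37.1% of the list against 22.6% of all genes. DESeq2 called 9, C3ar1, C5ar1, Cfp, Itgam, Itgb2 and Cd55 lower, and Cfd, Cd59a and Cd59b higher. Over all genes DESeq2 called 3.31% lower and 6.72% higher. Without KO replicate 2 edgeR called 12 of the 35, where it called 25.3% of all genes, and without wild-type replicate 3 it called 3, where it called 2.01% of all genes.

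The proteases and lectins that act beside C1q had log2 fold changes of either sign, and 0 of 8 passed the test in edgeR. C1s1, encoding C1s, the partner of C1r, had 437, 384 and 499 CPM in KO against 446, 483 and 466 CPM in wild type (log2 fold change -0.08, edgeR adjusted p = 0.772). The ratio of C1ra to C1s1 counts was 0.464 to 0.481 in KO and 0.470 to 0.511 in wild type. Fcna, a lectin that recognises sugars, had 61.4 ± 34.1 CPM in KO and 59.9 ± 6.85 CPM in wild type (SD, n = 3 each). Colec12, a collectin, and C4a, both named after their values were seen, were lower in every KO library. Colec12 had 53.7, 41.9 and 52.2 CPM in KO against 61.1, 70.7 and 63.0 CPM in wild type (log2 fold change -0.40, edgeR adjusted p = 0.138), and C4a had a log2 fold change of -0.78 (edgeR adjusted p = 0.146). Of the 8 genes, 4 had negative and 4 positive log2 fold changes.

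The alternative pathway genes beside Cfb had log2 fold changes of opposite sign, neither past the test in edgeR. Cfp, encoding properdin, which stabilises the C3 convertase and is made by leukocytes, had 71.7, 83.9 and 84.2 CPM in KO against 139, 182 and 116 CPM in wild type. Every KO library was below every wild-type library, with a log2 fold change of -0.86 (SE 0.18, edgeR adjusted p = 0.0625). Cfd, adipsin, the adipocyte protease that activates factor B, had 7723, 6086 and 10134 CPM in KO against 4959, 5142 and 5910 CPM in wild type. Every KO library was higher, with a log2 fold change of 0.58 (SE 0.26, edgeR adjusted p = 0.229). Of 15 adipocyte markers, a list that includes Cfd, 15 had positive log2 fold changes, with a median of 0.77 and summed levels of 25057 to 43453 CPM in KO and 18459 to 24562 CPM in wild type. Of these, 1 passed, the glucose transporter gene Slc2a4. The share of adipocyte RNA in the Cfd difference was not tested.

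Complement receptors had the lowest median of the roles, -0.97 over 10 tested genes, of which 8 were negative and 0 passed. These receptors sit mainly on myeloid and B cells. Itgam, which encodes the alpha chain of complement receptor 3, had 53.1, 50.4 and 58.3 CPM in KO against 180.0, 220.1 and 86.6 CPM in wild type (log2 fold change -1.59, SE 0.31, edgeR adjusted p = 0.0595). C3ar1, the receptor for the C3a fragment, had 13.2, 7.88 and 16.5 CPM in KO against 43.7, 55.1 and 20.6 CPM in wild type (log2 fold change -1.67, SE 0.39, edgeR adjusted p = 0.0726). For these receptors the groups did not overlap, and wild-type replicate 3 lay nearest to KO. They were named after their values were seen, as were Cd59a and Cr2 below.

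Itgb2, the integrin beta chain, had 87.3, 155 and 67.7 CPM in KO against 222, 267 and 148 CPM in wild type (edgeR adjusted p = 0.132). Cd93, a glycoprotein of endothelial cells first described as a C1q receptor, was at 129 ± 22.6 CPM in KO and 118 ± 5.40 CPM in wild type (SD, n = 3 each). Of 10 endothelial markers, 10 had positive log2 fold changes with a median of 0.38, and 0 passed in edgeR. At an unadjusted p under 0.05, 6 of them were higher, against 12.8% of all genes. Cr2, complement receptor 2 of B cells, had 50.2, 82.9 and 21.9 CPM in KO against 98.4, 84.7 and 109 CPM in wild type (log2 fold change -0.91, edgeR adjusted p = 0.236). B and T lymphocyte markers summed to 1010, 1965 and 550 CPM in KO and 1773 to 1819 CPM in wild type. KO libraries thus differed among themselves in lymphocyte and Cr2 transcripts in the same order. Of 10 monocyte and neutrophil markers 2 passed, Ccr2 and Retnlg, each lower.

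Regulators were mixed, with 5 of 11 tested genes negative and 6 positive, and 0 past the test. Cd55, decay-accelerating factor, had 112, 127 and 92.3 CPM in KO against 158, 152 and 163 CPM in wild type, without overlap (log2 fold change -0.52, SE 0.15, edgeR adjusted p = 0.0968). It was also on the stromal list. Cd59a, which blocks the membrane attack complex, had 75.9, 49.6 and 76.1 CPM in KO against 36.8, 29.2 and 42.0 CPM in wild type, all KO libraries higher (log2 fold change 0.90, SE 0.20, edgeR adjusted p = 0.0670). Clu, clusterin, had 417 ± 182 CPM in KO and 601 ± 81.7 CPM in wild type (SD, n = 3 each), with overlap.

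Of the terminal components, which form that complex, the 2 most abundant overlapped between the groups. C7 had 91.4, 41.5 and 91.6 CPM in KO against 75.5, 71.7 and 131 CPM in wild type. C6 had 12.1 ± 3.27 CPM in KO and 14.1 ± 4.87 CPM in wild type (SD, n = 3 each). Of 8 listed terminal symbols 4 were tested. The list held both Hc, which encodes C5, and C5, a symbol for the same gene that is not in the annotation. Hc was at 0.574 to 0.936 CPM in KO and 1.17 to 1.91 CPM in wild type. C8g went the other way, at 1.43 to 2.32 CPM in KO and 0.373 to 1.34 CPM in wild type. Hc and C8g were named after their values were seen.

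**Figure D4:**
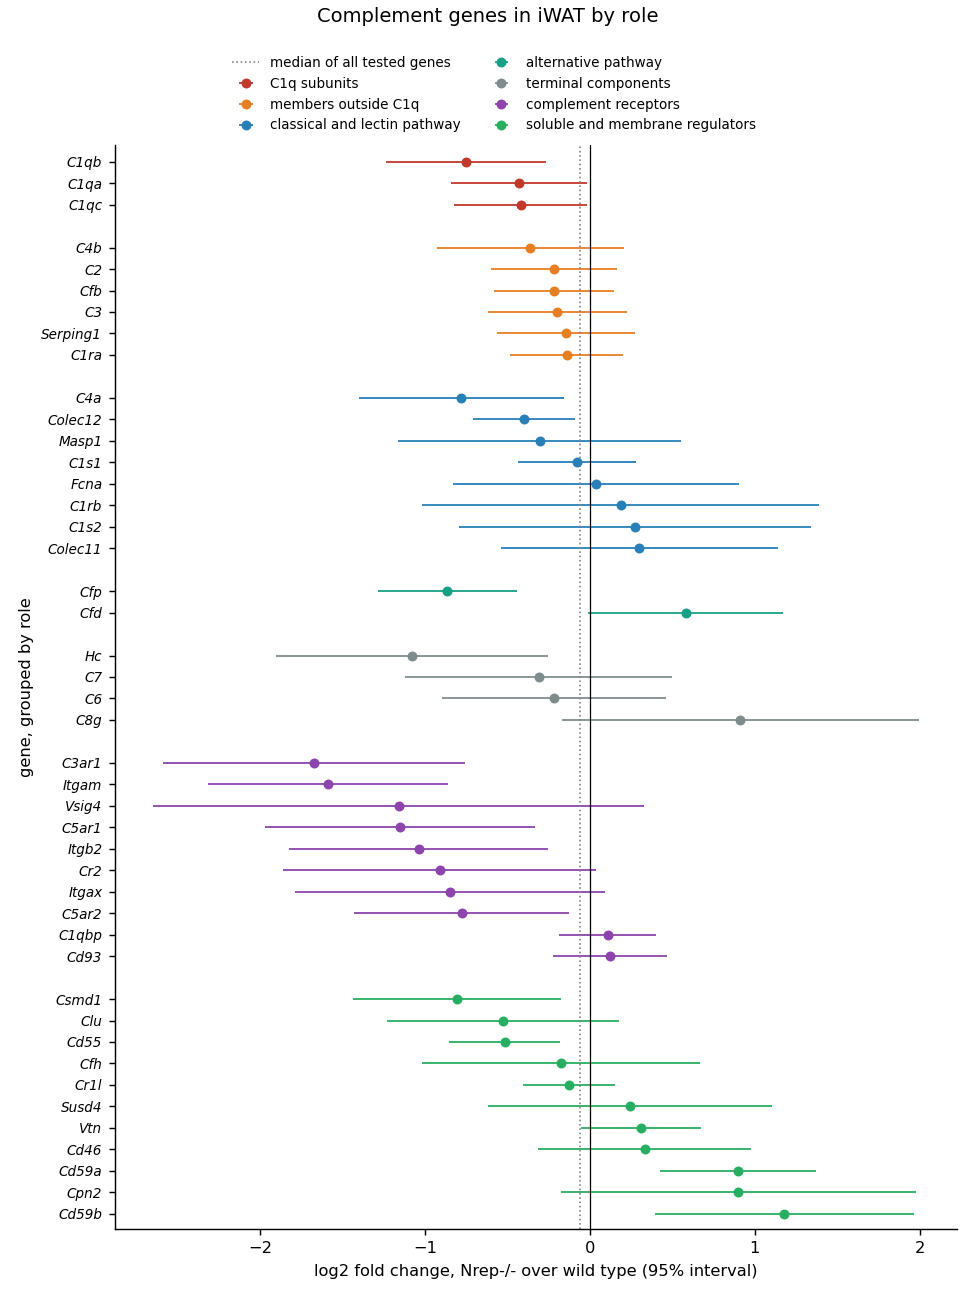
Log2 fold changes, Nrep-/- over wild type, with 95% intervals from edgeR (horizontal axis) for the 9 members and 35 other complement genes grouped by role; the dotted line is the median of all tested genes, -0.06. C1q subunits lie at -0.75 to -0.42, the other members at -0.36 to -0.14, and receptors reach -1.67.

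Interferon and NF-kB responses, which can induce C3, Cfb and other complement genes, were compared as lists. Of 20 interferon-stimulated genes, 20 had negative log2 fold changes with a median of -0.54, where 55.8% of all tested genes were negative. In edgeR 0 passed, while 9 were lower at an unadjusted p under 0.05, against 9.79% of all genes. The mean log2 level of the interferon list relative to wild type was -0.84, -0.49 and -0.92 in KO and 0.21, 0.36 and -0.57 in wild type. Of 14 tested NF-kB and acute phase genes, 13 were negative with a median of -0.94 and 0 passed. At an unadjusted p under 0.05, 12 were lower, again against 9.79% of all genes. The mean log2 level of the NF-kB and acute phase genes was -1.67, -1.48 and -1.51 in KO and 0.33, 0.55 and -0.88 in wild type. Wild-type replicate 3 lay within the KO range on the interferon list and between the KO libraries and the other wild-type libraries on the NF-kB list. For the 6 members outside C1q it was at -0.07. Without wild-type replicate 3 the log2 fold change was -0.31 for Cfb, -0.27 for C3 and -0.87 for C1qb. With all libraries these were -0.22, -0.20 and -0.75. The remaining members moved less: C1qa was at -0.47 against -0.43 with all libraries, C1qc at -0.47 against -0.42, and C2 at -0.24 against -0.22. C1ra was at -0.17 against -0.14, Serping1 at -0.15 against -0.14, and C4b at -0.35 against -0.36.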

How the data were processed

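Polyadenylated RNA of 6 iWAT libraries (3 KO, 3 wild type) was sequenced with a stranded kit, per the labels' protocols. The table deposited by the authors holds estimated counts per gene, not scaled between libraries and not pooled; 9.53% to 11.1% of values per library were not whole. The submitters' processing notes name fastp, featureCounts, GRCm38 and GRCm39 without tissue, so the quantifier and build of this table are not given in the sources used here. How multi-mapped reads were shared is not given either.

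Counts were rounded. Symbols came from GENCODE M21 names, matching 26372 of 33200 identifiers (79.4%). The test was edgeR 4.0.16 (R 4.3.3): TMM, filterByExpr, robust quasi-likelihood F-test, two-sided, Benjamini-Hochberg over 16656 genes at 0.05, checked on simulated data. The SE is the log2 fold change divided by the square root of F, and intervals use the fit's degrees of freedom. CPM are TMM-normalised; a floor of 3 counts was 0.140 to 0.172 CPM. Log2 CPM used a prior count of 2. Ratios were tested by an exact permutation test (SciPy 1.17.1). The edgeR p-values set the group difference against the variation between these libraries, estimated with information shared across genes.

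Members and lists were chosen with earlier results of these data known. Named genes were the members, the 2 most abundant genes of each role, up to 3 called or the 2 most abundant genes of a list, paralogues and nearest profiles; others are marked. Not every gene that rule allows is named. The C1q ratio to 1 macrophage marker is not reported here. Alternatives were DESeq2 1.42.0, limma-voom (limma 3.58.1), other scalings and filters, a replicate block, merged paralogues and leaving out each library.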

Additional observations from a re-analysis of the deposited data

How the results depend on the processing

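Over 17 alternatives, 148 of 153 member values kept their direction and their side of the threshold. C1qb passed in DESeq2 (log2 fold change -0.71), without a filter (-0.75) and at an adjusted p of 0.10 (-0.75), which made 1 member past the test in each; leaving out 1 library gave 0 members in every case. Direction turned for C1ra (0.0042) and Serping1 (0.048) without KO replicate 2. Leaving out 1 library gave log2 fold changes of -0.60 to -0.28 for C1qa, -0.93 to -0.56 for C1qb, -0.57 to -0.25 for C1qc, -0.25 to 0.0042 for C1ra, -0.41 to -0.08 for C2, -0.27 to -0.11 for C3, -0.63 to -0.12 for C4b, -0.31 to -0.14 for Cfb and -0.29 to 0.048 for Serping1. Other complement genes past the test were 9 in DESeq2, 3 without a filter, 5 at an adjusted p of 0.10, 4 with the replicate block and 0 to 12 when leaving out 1 library. Over all genes, 171 passed, against 1774 in DESeq2, 16 in limma-voom, 1370 without a filter, 84 at 50 counts in 3 libraries, 1378 at an adjusted p of 0.10, 1225 with the replicate block and 1 to 4221 when leaving out 1 library; the cause was not tested. Scaling by library totals alone shifted the all-gene median by -0.13 on the log2 scale and put C1qb at -0.90. With the replicate block C1qb was at -0.75 (edgeR adjusted p = 0.0952) and 0 members passed. The replicate numbers share only a number: deviations from the group means of same-numbered libraries correlated across genes at -0.01, 0.20 and 0.11, and KO replicate 1 correlated best with wild-type replicate 3 (0.14). Genes are not independent replicates.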
